A study of Homo sapiens with 24 samples.

Results

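The comparison set 3 libraries of HSJD-DIPG-007 cells kept with vehicle for 5 days against 3 libraries of the same cells with vehicle at day 0. These were 6 of the 24 libraries of the series, chosen by treatment and day alone, and they show the change with time in culture without drug. HSJD-DIPG-007 is an established, patient-derived diffuse midline glioma (DMG) line with mutations in H3F3A (the H3K27M change), ACVR1 and PIK3CA, and both groups carry all of these. A further 6 vehicle libraries came from days 1, 2, 3, 7 and 10, and 12 came from cells given LLY-283, an inhibitor of the arginine methyltransferase PRMT5, and both treatments were sampled at days 0, 1, 2, 3, 5, 7 and 10. The cells were seeded as spheroids on the day before treatment, and medium was replaced after 5 days; whether the day 5 RNA was taken before that change is not given in the sources used here. The libraries of a day were described as technical repeats of 1 line, so p-values measure the spread between these libraries and not that between independent cultures.

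DMG with the H3K27M mutation arises in the midline of the brain in children, and its cells resemble oligodendrocyte precursors that keep dividing. The line is grown as floating spheroids in defined medium. Among the programmes followed here, mitosis genes are transcribed late in the cell cycle, cholesterol is built from acetyl units under control of the transcription factor SREBP2, and MHC class I molecules carry peptides to the cell surface.

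The day 0 libraries held 19048997 to 20405208 counts and the day 5 libraries 13835205 to 16691287, so day 5 gave less information on rare transcripts. The median coefficient of variation of a gene was 6% at day 0 and 6.38% at day 5. Libraries of the same day differed by more than sampling noise, with chi-square values of 1.79 to 3.79 per degree of freedom. Sample numbers 37 to 39 were day 0 and 1 to 3 were day 5, so day and number range cannot be told apart. The vehicle libraries of days 1, 2 and 3 had numbers 43, 45 and 47, next to day 0, and their values are given beside the main results without a test. For day 7, the repeat 2 library labelled vehicle lay about as far from the mean of vehicle day 5 as from that of LLY-283 day 5, at Euclidean distances of 40 and 40.3 in log2 CPM over all tested genes. Repeat 2 of LLY-283 at day 7 lay nearer to vehicle day 5, at 30.9 against 47.2, and neither repeat entered the main comparison.

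The cell type was checked first. OLIG2, a transcription factor of the oligodendrocyte lineage, was at 282 to 292 CPM (counts scaled to the library total) at day 0 and 351 to 366 CPM at day 5. PTPRZ1, a phosphatase of glial precursors, was at 2675 to 2733 and then 3182 to 3396 CPM, and SOX10 did not pass the filter on low counts. None of 10 markers of microglia and macrophages passed that filter, and their summed level was 1.03 to 1.70 CPM at day 0 and 0.246 to 1.23 CPM at day 5. The 10 endothelial markers summed to 14.6 to 19.7 CPM and then 10.3 to 12.1 CPM.

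Some fibroblast genes set 1 library apart. FN1 (fibronectin) was at 2.4, 2.65 and 60.1 CPM in vehicle day 5 repeats 1, 2 and 3, and at 4.06, 8.26 and 5.71 CPM at day 0. COL1A1 and COL1A2, which encode the chains of type I collagen, were at 8.49, 7.76 and 53.6 CPM and at 1.05, 0.646 and 36.7 CPM in the same libraries. Of 21 fibroblast genes tested, 8 were over 2 times and 5 over 4 times as high in repeat 3 as in the mean of repeats 1 and 2. Others were level, with the same ratio at 0.887 for PDGFRB, 0.97 for THY1, 0.987 for PRRX1, 0.995 for ACTA2 and 1.03 for COL5A2. The sum over the list of 24 was 935.9 to 1007 CPM at day 0 and 1335 to 1538 CPM at day 5, of which S100A4, a calcium binding protein, gave 308 to 354 and 691 to 708 CPM. The list had 6 genes called higher and 3 lower. These were 28.6% and 14.3% of those tested, near the 22.2% and 16.7% of all genes. The median log2 fold change was 0.351, and without repeat 3 the median was -0.144 with 6 lower. FN1, COL1A1, COL1A2, THBS1 and DCN were not called. Over all genes, 6018 were called without repeat 3, and whether that library held fibroblast RNA was not tested.

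**Figure D1:**
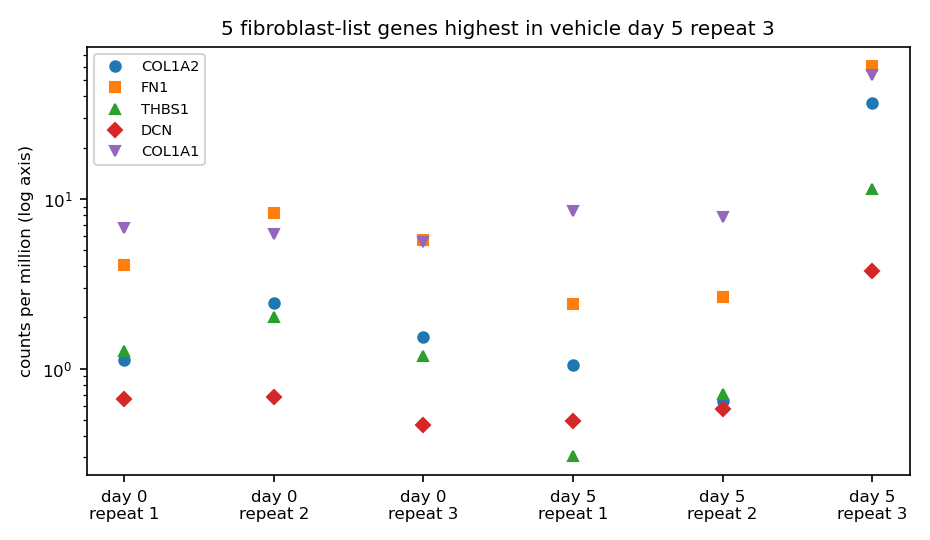
CPM, the counts scaled to the library total, on a log axis, of the 5 fibroblast-list genes with the highest ratio of vehicle day 5 repeat 3 to the mean of repeats 1 and 2, in the 6 libraries. Each point is a library, and all 5 genes were highest in day 5 repeat 3, where FN1 reached 60.1 CPM.

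Between day 0 and day 5, 6652 of 17106 genes tested were called at an adjusted p under 0.01, which is 38.9%. Of these, 3799 were higher at day 5 (22.2% of genes tested) and 2853 lower (16.7%), and these shares are the background for the counts of every gene list. For 9676 genes (56.6%) the 3 libraries of day 5 did not overlap those of day 0. Most changes were small, with a median absolute log2 fold change of 0.388 among called genes and a median of -0.0152 over all genes tested. Beyond a 2-fold change the balance turned, with 207 genes higher and 560 lower. Beyond a 4-fold change 25 were higher and 68 lower, of which 8 and 11 had a mean of at least 5 CPM. Scaling by library size alone gave 3039 higher and 3545 lower among 6584 called genes. Long noncoding RNAs fell more often than they rose, with 382 lower and 72 higher of 2466 tested, against 2254 lower and 3689 higher of 13264 protein-coding genes. After thinning all libraries to the smallest total, 327 noncoding RNAs were lower and 58 higher.

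**Figure D2:**
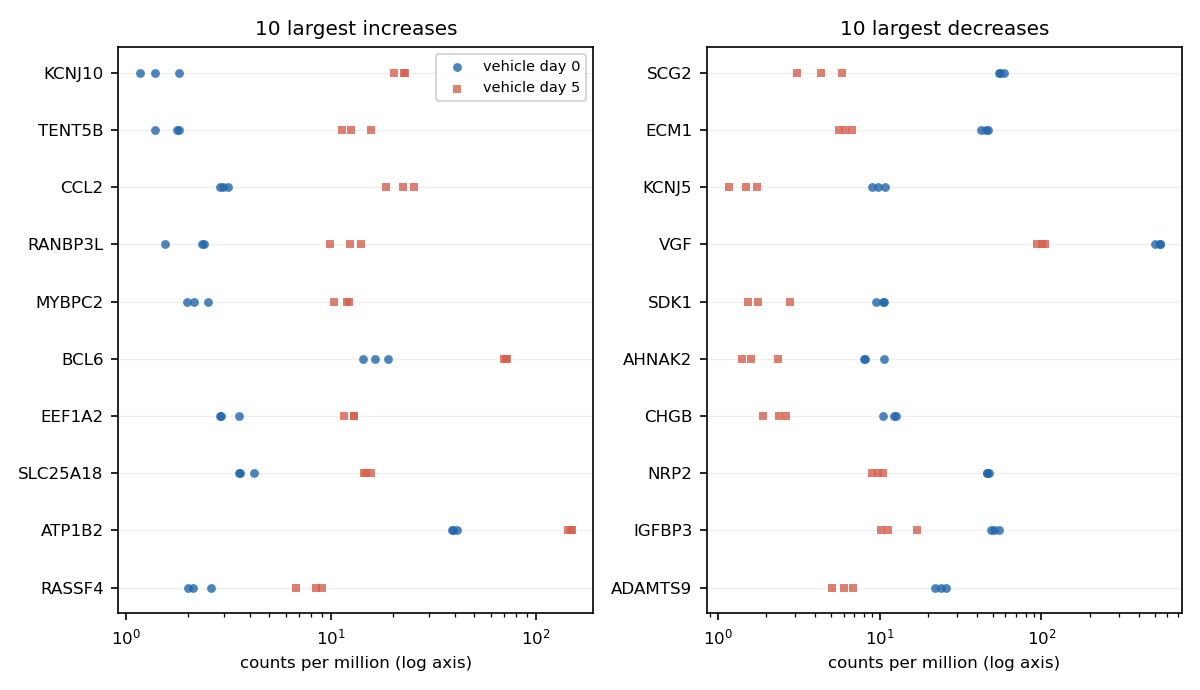
CPM, the counts scaled to the library total, on a log axis, of the 10 protein-coding genes with the largest increases and the 10 with the largest decreases. Each point is a library, blue circles for vehicle day 0 and red squares for vehicle day 5, and the separation of the days was a condition of the choice.

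The largest increase was that of KCNJ10, which encodes Kir4.1, the inward-rectifying potassium channel of glial cells (chr1:159998651-160070160, minus strand, GRCh38). It was at 1.17, 1.81 and 1.39 CPM in the day 0 libraries and at 20.3, 22.9 and 22.8 CPM at day 5. This was a 15.1-fold rise (log2 3.92 ± 0.133, adjusted p = 2.85e-19), and the groups lay far apart. At days 1, 2 and 3 it was at 6.44, 5.05 and 7.66 CPM. Other glial ion and glutamate handling genes were among the 12 largest increases. ATP1B2, a subunit of the glial sodium pump, rose from 38.7–40.9 to 143–149 CPM, and SLC25A18, a mitochondrial glutamate carrier, from 3.55–4.2 to 14.4–15.6 CPM. GFAP, the intermediate filament protein of astrocytes, was at 0.733 to 1.39 CPM and then 1.48 to 1.62 CPM and was not called, and AQP4 did not pass the filter.

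CCL2, a chemokine that attracts monocytes, was at 3.15, 2.88 and 2.98 CPM at day 0 and 18.6, 22.5 and 25.4 CPM at day 5 (log2 2.88 ± 0.123, adjusted p = 1.25e-16). BCL6, a transcriptional repressor, rose from 14.4–18.9 to 69.9–72 CPM (log2 2.12 ± 0.069, adjusted p = 5.26e-17), by way of 25.3, 32 and 41.5 CPM at days 1, 2 and 3. EEF1A2, a translation elongation factor, rose by 2.01 on the log2 scale. TENT5B, RANBP3L, MYBPC2, RASSF4 and TP53I11 were also among the largest increases, and none of these was above 4.63 CPM at day 0. BCL6, SLC25A18, RASSF4 and TP53I11 overlap a gene on the other strand. The library kit keeps strand, but whether the counting used it is not given in the sources used here, so reads of such pairs may be mixed.

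Among the 12 largest decreases, 3 were of secretory granule proteins. VGF was at 507, 543 and 544 CPM at day 0 and 101, 94.2 and 105 CPM at day 5 (log2 -2.39 ± 0.0423, adjusted p = 1.48e-25). SCG2 (secretogranin II) fell from 54.4, 55.4 and 58.7 CPM to 5.85, 4.33 and 3.09 CPM (log2 -3.63 ± 0.109, adjusted p = 4.32e-14), and CHGB (chromogranin B) from 10.5–12.6 to 1.91–2.65 CPM. SCG2 was at 9.25 CPM by day 1, whereas VGF was at 189.9, 221 and 152 CPM at days 1, 2 and 3.

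ECM1, an extracellular matrix protein, fell from 42.1–46.9 to 5.62–6.77 CPM. NRP2, a coreceptor for semaphorins and VEGF, fell from 46.2–47.4 to 8.96–10.5 CPM, and PTK2B, a kinase related to focal adhesion kinase, from 105–110.3 to 27.7–28.9 CPM. IGFBP3, a carrier of insulin-like growth factors, fell by 2.01 on the log2 scale (adjusted p = 0.000154), with 11.3, 10.2 and 17 CPM in the day 5 libraries. KCNJ5, SDK1, AHNAK2, ADAMTS9 and EMP1 fell by 1.88 to 2.74 on the log2 scale. NRP2, SDK1, AHNAK2 and ADAMTS9 overlap a gene on the other strand.

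All 32 members of the mitosis list rose. The median log2 fold change was 0.778, from 0.251 to 1.24, beside 22.2% of all genes called higher and a median of -0.0152. DLGAP5, a spindle protein, was at 49, 51.2 and 51.9 CPM at day 0 and 110.5, 108 and 114 CPM at day 5 (log2 1.14 ± 0.043, adjusted p = 3.08e-18). KIF20A, a kinesin needed for cell cleavage, rose from 36.1–37.2 to 81.5–86.6 CPM and AURKA, a mitotic kinase, from 46.3–49.6 to 96.2–96.7 CPM. CENPA, the centromere histone, and CENPE, a kinesin of the kinetochore, both rose by 1.24. MKI67, the proliferation antigen Ki-67, was at 366, 354 and 340.3 CPM and then 627, 611 and 575 CPM (log2 0.78 ± 0.0404). MYBL2 and MAD2L1 rose least, by 0.25 and 0.30. The days did not overlap for any of the 32 genes, beside 56.6% of all genes tested without overlap.

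Genes of DNA replication moved less. Of 33 tested, 10 rose, 2 fell and 21 were not called, with a median of 0.025. The called share of 36.4% lay near the 38.9% of all genes, with 30.3% higher and 6.06% lower beside 22.2% and 16.7%. UHRF1, which maintains DNA methylation behind the replication fork, rose from 549.9–555 to 708–738 CPM (log2 0.39 ± 0.0354, adjusted p = 3.34e-10). MCM4 and MCM3, subunits of the replicative helicase, rose by 0.22 and 0.20, while MCM5 and MCM2 were not called. CCNE2, an S phase cyclin, fell from 38.9–39.3 to 22.3–28.3 CPM, and the transcription factor E2F1 fell by 0.19. PCNA, the polymerase clamp, had a log2 fold change of -0.06 (adjusted p = 0.195). With scaling by library size alone 9 members were lower and the median was -0.0299.

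The mitosis genes had reached their day 5 level by day 1. Relative to day 0 their median log2 difference was 0.768, 0.754 and 0.775 at days 1, 2 and 3, 0.727 to 0.795 in the day 5 libraries and 0.417 at day 10. CDKN1A, which encodes the cyclin-dependent kinase inhibitor p21, fell from 363, 392 and 384 CPM to 162, 163 and 167 CPM (log2 -1.20 ± 0.0378, adjusted p = 5.56e-20). It was at 218, 158 and 145 CPM at days 1, 2 and 3. CDKN1B, which encodes the related inhibitor p27, rose from 62.9–70.8 to 89.1–92.9 CPM.

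**Figure D3:**
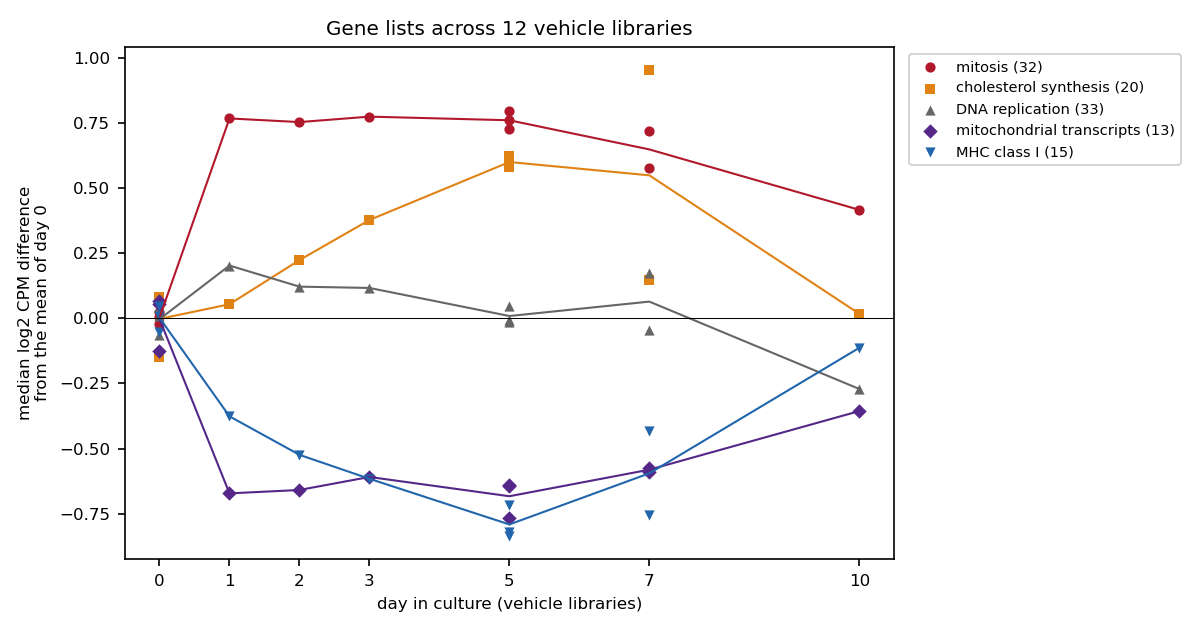
Median log2 CPM difference from the mean of day 0 for 5 gene lists in the 12 vehicle libraries, against the day in culture. Points are libraries and lines join the means of each day; mitosis genes were at 0.768 by day 1, cholesterol synthesis and MHC class I genes moved further with each day to day 5, and the day 7 libraries lay at 0.953 and 0.146 for cholesterol synthesis.

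Promoter sequences show which short motifs the mitosis genes share. Windows from 250 bases before to 50 bases after the start were taken from RefSeq (GRCh38.p14) and searched on both strands. The CCAAT box bound by NF-Y (CCAAT) lay in 21 of 26 mitosis members with a window (80.8%) and in 35.7% of all 27305 promoters. Across the other lists with windows its share ran from 8.33% (MAPK feedback genes) to 93.8% (unfolded protein response). It was 80% for cholesterol synthesis and 60.7% for DNA replication, so it was not particular to the mitosis list. The cell cycle homology region (TTTGAA) lay in 17 of 26 (65.4%), in 15.4% of all promoters and in 10.1% of those of genes tested. Among the other lists its share was highest for astrocyte genes, at 5 of 11 (45.5%). In the DNA replication list 1 of 28 windows held TTTGAA (3.57%), while 9 of 28 (32.1%) held the E2F site TTTCCCGC, against 1.66% of all promoters. A match describes letters and is not a shown binding site. The windows of 3 mitosis genes that hold both motifs are printed 5′ to 3′ on the strand of the gene, with the letters of CCAAT and TTTGAA, read on either strand, in capitals.
DLGAP5, chr14:55191536-55191835, minus strand: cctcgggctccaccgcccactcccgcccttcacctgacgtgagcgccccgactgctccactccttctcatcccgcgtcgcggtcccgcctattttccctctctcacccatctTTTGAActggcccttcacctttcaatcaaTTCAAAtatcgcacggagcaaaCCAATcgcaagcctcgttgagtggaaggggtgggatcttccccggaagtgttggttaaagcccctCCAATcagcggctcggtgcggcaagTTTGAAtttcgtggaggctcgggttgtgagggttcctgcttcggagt
TOP2A, chr17:40417847-40418146, minus strand: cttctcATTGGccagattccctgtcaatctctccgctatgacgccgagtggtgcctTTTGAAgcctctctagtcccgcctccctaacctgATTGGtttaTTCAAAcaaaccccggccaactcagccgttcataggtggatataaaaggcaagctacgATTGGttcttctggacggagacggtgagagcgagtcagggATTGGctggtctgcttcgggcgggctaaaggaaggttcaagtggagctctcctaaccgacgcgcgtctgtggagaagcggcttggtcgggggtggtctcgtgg
PLK1, chr16:23678639-23678938, plus strand: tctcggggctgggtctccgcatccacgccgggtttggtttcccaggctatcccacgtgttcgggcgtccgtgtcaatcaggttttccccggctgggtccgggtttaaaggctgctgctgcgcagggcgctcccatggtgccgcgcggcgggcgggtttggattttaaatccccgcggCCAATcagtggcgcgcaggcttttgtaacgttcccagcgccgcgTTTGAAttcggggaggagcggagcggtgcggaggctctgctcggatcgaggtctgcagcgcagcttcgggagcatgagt

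TOP2A, topoisomerase II alpha, rose from 210.4, 221 and 222 CPM to 419, 392 and 435 CPM, and PLK1, a mitotic kinase, from 60.7, 59.95 and 62.9 CPM to 120.1, 124 and 118 CPM. In PLK1 the CCAAT match began 73 bases and the TTTGAA match 29 bases before the start.

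Enzymes of cholesterol synthesis rose together. Of 20 members 17 rose and 2 fell, with a median log2 fold change of 0.622, or 85% and 10% beside 22.2% and 16.7% of all genes. LSS, lanosterol synthase, was at 113, 119 and 115 CPM at day 0 and 184, 196 and 186 CPM at day 5 (log2 0.72 ± 0.0394, adjusted p = 9.66e-15). FDFT1 and SQLE, which make squalene and oxidise it, rose by 0.72 and 0.54. ACAT2, which joins acetyl units at the entry to the pathway, rose by 0.84 (adjusted p = 0.00408). For all 17 genes that rose, day 0 repeat 1 was the lowest day 0 library, and 17 were called higher without it. When the spread was estimated over all 22 libraries of days 0 to 7, 3 members were called higher and LSS was not among them.

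Against that direction, DHCR7, which catalyses a final reduction, fell from 317, 369 and 369.8 CPM to 228, 226 and 225 CPM (log2 -0.62 ± 0.0468, adjusted p = 1.52e-09) and was at 230, 200.4 and 194 CPM at days 1, 2 and 3. PMVK, phosphomevalonate kinase, fell by 0.19, and 1 member rather than 2 was called lower without day 0 repeat 2 or 3 or without day 5 repeat 2 or 3. The DESeq2 test and the fit of 22 libraries also gave 1 lower. TM7SF2, a sterol reductase, was at 5.5 to 6.25 CPM and then 3.94 to 4.86 CPM and was not called.

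Regulators of the pathway were mixed in size. Of 8 tested members of the SREBP2 control and sterol uptake list, 4 rose and the others were not called. That was 50% called higher, beside 22.2% of all genes. INSIG1, which retains the SREBP escort SCAP in the endoplasmic reticulum, rose from 72.1, 84.2 and 87.8 CPM to 189, 187 and 212 CPM (log2 1.28 ± 0.0752, adjusted p = 2.34e-06). SREBF2, which encodes SREBP2, rose from 230–249.5 to 326–350.3 CPM (log2 0.50 ± 0.0388). STARD4, a sterol transfer protein, rose by 0.66 on the log2 scale. SCAP, MYLIP and TMEM97 had log2 fold changes of 0.10, 0.07 and -0.06 and were not called.

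The letters TCACCCNAC, a core of the sterol regulatory element with N for any base, lay in 0.919% of all promoters. They lay in 1 of 15 windows of the cholesterol synthesis list and in 1 of 7 of the control list. Those windows, from RefSeq (GRCh38.p14), are printed with the match in capitals.
HSD17B7, chr1:162790452-162790751, plus strand: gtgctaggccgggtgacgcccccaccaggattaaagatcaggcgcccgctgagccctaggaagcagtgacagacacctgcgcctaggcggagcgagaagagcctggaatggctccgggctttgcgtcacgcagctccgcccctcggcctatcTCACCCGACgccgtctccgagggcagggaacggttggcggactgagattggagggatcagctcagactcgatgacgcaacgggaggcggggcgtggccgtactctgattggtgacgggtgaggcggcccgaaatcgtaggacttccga
SREBF2, chr22:41832855-41833154, plus strand: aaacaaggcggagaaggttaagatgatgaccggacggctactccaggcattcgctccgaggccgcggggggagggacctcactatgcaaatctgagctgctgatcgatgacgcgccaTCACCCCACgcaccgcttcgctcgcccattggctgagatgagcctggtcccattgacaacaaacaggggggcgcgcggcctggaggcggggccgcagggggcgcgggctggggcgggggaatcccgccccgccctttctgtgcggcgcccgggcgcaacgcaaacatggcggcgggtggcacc

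HSD17B7, a sterol ketoreductase, rose from 16.6, 19.2 and 21.9 CPM to 33, 34.6 and 33.3 CPM (log2 0.82 ± 0.0761).

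All 10 tested genes of fatty acid synthesis rose, with a median of 0.575. FADS2, a desaturase of polyunsaturated fatty acids, rose from 353–384 to 644–673 CPM (log2 0.83 ± 0.038, adjusted p = 1.46e-16). SCD, stearoyl-CoA desaturase, rose by 0.69 and FASN, fatty acid synthase, by 0.61. Their transcription factor SREBF1 rose from 111–114 to 158–169 CPM. The median log2 difference from day 0 of the cholesterol synthesis list was 0.0544, 0.224 and 0.378 at days 1, 2 and 3 and 0.581 to 0.622 at day 5. That of the fatty acid list was 0.115, 0.327 and 0.334 and then 0.538 to 0.602. In the day 10 library the cholesterol synthesis list was at 0.0177 and the fatty acid list at 0.294. Targets of the sterol receptor LXR gave 5 higher and 3 lower of 11, or 45.5% and 27.3% beside 22.2% and 16.7% of all genes. Their log2 fold changes ran from -1.08 to 0.86. NR1H3, which encodes LXR alpha, and PLTP, a phospholipid transfer protein, fell by 0.48 and 0.28. The sterol exporter ABCG1 rose from 48.8–54.8 to 87.8–95 CPM, whereas ABCA1 had a log2 fold change of 0.09 and was not called.

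**Figure D4:**
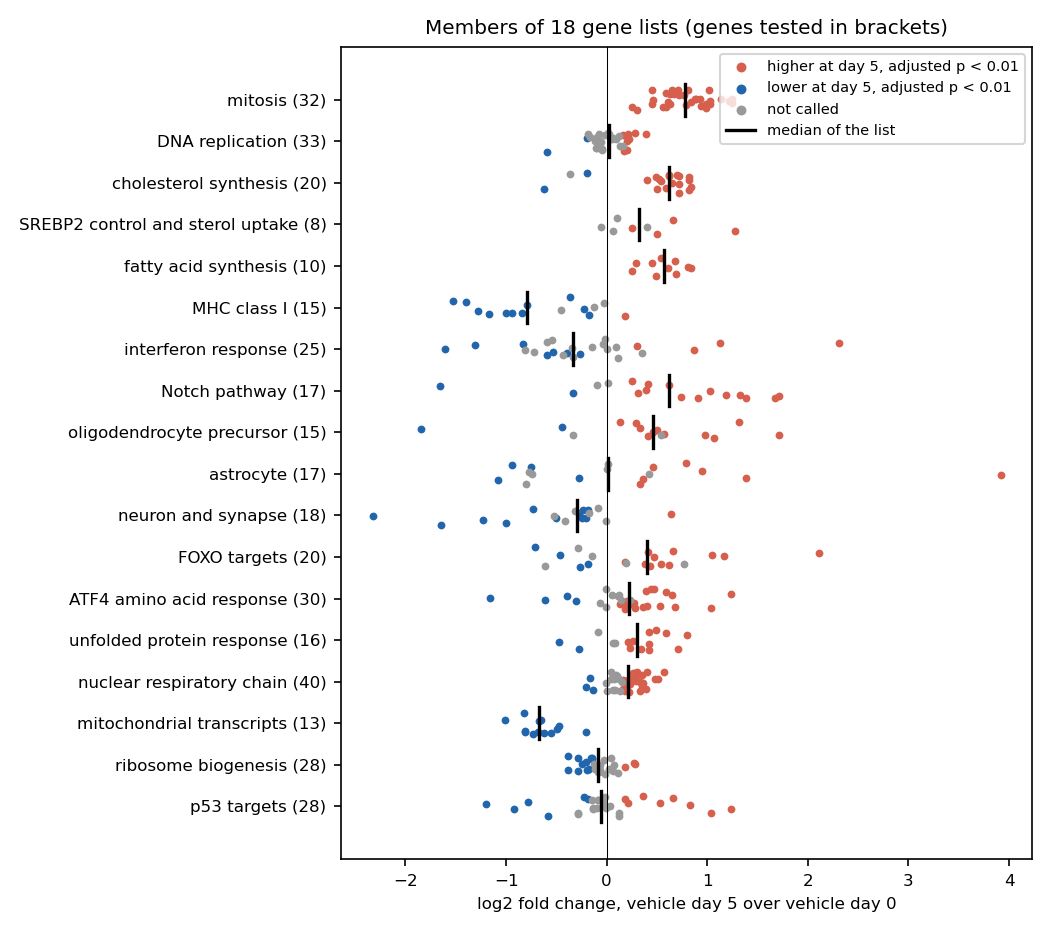
Log2 fold change of vehicle day 5 over vehicle day 0 for each tested member of 18 gene lists. Red and blue points were called higher or lower at an adjusted p under 0.01, grey points were not called, and black bars are list medians, from -0.792 for MHC class I to 0.778 for mitosis.

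Most genes of the MHC class I pathway, which presents peptides to T cells, fell. Of 15 members 11 fell and 1 rose, with a median of -0.792, beside 16.7% of all genes called lower. HLA-B was at 146, 145 and 153 CPM at day 0 and 53.5, 47.6 and 52.3 CPM at day 5 (log2 -1.52 ± 0.0445, adjusted p = 1.18e-20). HLA-C fell from 114–126 to 47.8–51.2 CPM. These heavy chain genes are near-identical, so the split of reads among them is uncertain.

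Genes of other steps fell as well. TAP1 and TAP2, which form the peptide transporter, fell by 1.00 and 0.84 on the log2 scale. PSMB9 and PSMB8, subunits of the immunoproteasome, fell by 1.40 and 0.95. B2M, the light chain, fell from 439, 467 and 495 CPM to 362, 348 and 368 CPM (log2 -0.37 ± 0.0393). NLRC5, the transactivator of the pathway, fell by 0.22 (adjusted p = 0.00342). TAPBP, a loading factor, rose by 0.18, a call lost with scaling by library size alone, and HLA-E, PSMB10 and ERAP2 were not called. The list had a median log2 difference from day 0 of -0.376, -0.524 and -0.616 at days 1, 2 and 3, -0.835 to -0.718 at day 5 and -0.113 at day 10.

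The interferon element core GAAANNGAA, with N for any base, lay in 7 of 12 MHC class I windows (58.3%), in 14 of 20 windows of the interferon response list (70%) and in 8.29% of all promoters. The transporter genes are shown, from RefSeq (GRCh38.p14), with the matches in capitals.
TAP1, chr6:32853655-32853954, minus strand: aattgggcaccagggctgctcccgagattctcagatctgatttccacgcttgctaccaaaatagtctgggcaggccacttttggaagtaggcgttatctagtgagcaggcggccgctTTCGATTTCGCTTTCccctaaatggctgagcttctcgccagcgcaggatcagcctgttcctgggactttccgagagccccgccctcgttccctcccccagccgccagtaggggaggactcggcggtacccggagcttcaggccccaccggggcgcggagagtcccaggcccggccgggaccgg
TAP2, chr6:32838690-32838989, minus strand: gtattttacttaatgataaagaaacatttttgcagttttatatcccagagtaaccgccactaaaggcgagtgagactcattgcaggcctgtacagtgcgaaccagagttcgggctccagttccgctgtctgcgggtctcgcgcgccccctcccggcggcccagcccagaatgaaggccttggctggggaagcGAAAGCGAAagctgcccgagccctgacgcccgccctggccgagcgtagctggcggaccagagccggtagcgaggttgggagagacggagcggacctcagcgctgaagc

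Interferon response genes moved both ways, with 4 higher, 7 lower and 14 not called of 25 tested. There were 2 higher without day 5 repeat 3 or with the DESeq2 test. The called share of 44% lay near the 38.9% of all genes, with 16% higher and 28% lower beside 22.2% and 16.7%. IFIT2, an antiviral protein, rose from 38.5–41 to 71.7–72.6 CPM after 34.8, 29.4 and 31 CPM at days 1, 2 and 3. STAT2, which carries the interferon signal to the nucleus, fell by 0.39. IFI44, OAS3 and SAMD9 fell by 0.83, 0.59 and 1.61.

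Notch signalling runs from ligands on one cell to receptors and HES and HEY target genes in its neighbour. Of 17 tested members 13 rose and 2 fell, with a median of 0.617. These were 76.5% and 11.8% of the list, beside 22.2% and 16.7% of all genes, and 1 fell without day 0 repeat 2 or without any 1 of the day 5 repeats. The DESeq2 test and the fit of 22 libraries also gave 1 lower. Of the ligands, JAG2 rose from 11–12.8 to 25.5–28.7 CPM and DLL3 from 18.4–20.9 to 35.8–43.6 CPM, while JAG1 had a log2 fold change of -0.09 and was not called. The receptor NOTCH3 was at 77.7, 83.4 and 85.8 CPM at day 0 and 261, 258 and 262 CPM at day 5 (log2 1.67 ± 0.0393, adjusted p = 1.05e-22). NOTCH1 and NOTCH2 rose by 0.62 and 0.39.

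The target genes divided. HES1 rose from 21.5–22.9 to 52.8–58.9 CPM (log2 1.33 ± 0.0588), and NRARP, a feedback inhibitor, by 0.74. HEY1 fell from 81.8, 91.7 and 92.7 CPM to 29.1, 26.9 and 28.1 CPM (log2 -1.65 ± 0.0548, adjusted p = 1.92e-19), passing 61, 41.8 and 26.9 CPM at days 1, 2 and 3. HES6, an antagonist of HES1, rose by 1.39, HES4 was not called, and HES5 and HEY2 did not pass the filter.

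Markers of oligodendrocyte precursors mostly rose, with 11 higher and 2 lower of 15 tested and a median of 0.457. The called shares were 73.3% and 13.3%, beside 22.2% and 16.7% of all genes. PDGFRA, the PDGF receptor of these cells, was at 79.9, 81.9 and 79.9 CPM at day 0 and 158, 153 and 160.4 CPM at day 5 (log2 0.98 ± 0.0383, adjusted p = 6.69e-18). The proteoglycans NCAN and BCAN rose by 1.31 and 1.07 and VCAN fell by 0.44. The largest change of the list by size was a fall, that of SEMA5A, a semaphorin, from 0.965, 1.27 and 0.925 CPM to 0.308, 0.259 and 0.294 CPM (log2 -1.84 ± 0.424, adjusted p = 0.000561), at low counts. OLIG1 and OLIG2 rose by 0.50 and 0.33. CSPG4, the NG2 proteoglycan, rose by 0.13, a call lost under 9 of the alternatives. In bulk RNA more cells of a type and more RNA per cell cannot be told apart.

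Markers of other neural fates moved differently. Of 17 astrocyte genes tested 7 rose and 4 fell, or 41.2% and 23.5% beside 22.2% and 16.7% of all genes. Their log2 fold changes ran from -1.08 to 3.92, the highest being that of KCNJ10. SOX9, a glial transcription factor, rose by 0.36, VIM (vimentin) fell from 1965–2116 to 1168–1244 CPM, and CLU (clusterin) fell by 0.95. Neuronal genes gave 11 lower and 1 higher of 18 tested, or 61.1% and 5.56%, with a median of -0.293. TUBB3, neuronal tubulin, fell from 114–121 to 55.2–59.7 CPM and DCX (doublecortin) from 2.62–3 to 0.492–0.646 CPM, while GRIA2, a glutamate receptor subunit, rose by 0.64. Of 11 mature oligodendrocyte genes tested MYRF and CNP rose, by 0.32 and 0.26, and the others were not called. That share of 18.2% lay near the 22.2% of all genes called higher, and the list median was -0.0632.

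ACVR1, mutated in this line, is a receptor of the BMP pathway. Of 20 tested genes of that pathway 7 rose and 4 fell, or 35% and 20% beside 22.2% and 16.7% of all genes. The target ID2 fell from 15.9–17.9 to 7.05–7.94 CPM (log2 -1.18 ± 0.0958), whereas ID3 and ID4 rose by 0.46 and 0.30. The antagonist NOG (noggin) rose from 1.17–1.62 to 3.63–4.04 CPM and the antagonist CHRDL1 fell by 0.98. ACVR1 was at 16 to 17.4 CPM and then 13.7 to 14.6 CPM and was not called (adjusted p = 0.0147).

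Growth factor genes gave 12 higher and 5 lower of 23 tested, or 52.2% and 21.7% beside 22.2% and 16.7% of all genes. The receptors ERBB2, IGF1R and FGFR3 rose by 0.63, 0.67 and 1.39, while EGFR fell from 647, 690 and 647 CPM to 492, 471 and 462 CPM. Feedback genes of MAP kinase signalling gave 9 higher and 1 lower of 20, or 45% and 5%. With scaling by library size alone 4 were lower, and 2 were lower without day 0 repeat 1. DUSP6, a phosphatase of ERK, rose from 261–265 to 401–414 CPM and MYC by 0.82, whereas DUSP4 fell by 0.66.

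Targets of FOXO factors, which are active when PI3K signalling is low, gave 11 higher and 4 lower of 20. The shares were 55% and 20%, beside 22.2% and 16.7% of all genes. SESN3, a stress sensor, rose from 75.9–77.9 to 166–178 CPM (log2 1.17 ± 0.0399, adjusted p = 3.58e-19), CCNG2, a cyclin, by 1.04 and FOXO3 by 0.62. IRS2, an adaptor of the insulin receptor, fell by 0.71. In the amino acid response list 18 of 30 rose and 4 fell, or 60% and 13.3%. DDIT4, an inhibitor of mTOR, rose from 105–109 to 244–256 CPM, and the serine synthesis enzymes PHGDH, PSAT1 and PSPH rose by 0.65, 0.59 and 0.39. The stress factors DDIT3 and ATF3 fell by 0.61 and 1.16.

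Chaperones mostly rose. In the unfolded protein response list 11 of 16 rose and 2 fell, or 68.8% and 12.5% beside 22.2% and 16.7% of all genes. The lower count was 1 without day 5 repeat 3, with the DESeq2 test and in the fit of 22 libraries. XBP1, a transcription factor of that response, was up by 0.80 on the log2 scale. HSPA5, the main chaperone of the endoplasmic reticulum, was at 585 to 626 CPM at day 0, 889.5 CPM at day 1 and 712 to 750.1 CPM at day 5. Of 16 heat shock chaperones 11 rose, or 68.8%, and the others were not called. DNAJB1, a cofactor of HSP70, rose by 0.56 and HSPA1B by 0.92, though reads of HSPA1B and its near-identical copy HSPA1A may be mixed.

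Genes of the respiratory chain differed by genome. All 13 protein-coding transcripts of the mitochondrial genome fell, with a median of -0.668. MT-ND1, a subunit of complex I, was at 2755, 2765 and 2400 CPM at day 0 and 1348, 1395 and 1157 CPM at day 5 (log2 -1.01 ± 0.103, adjusted p = 0.000695). Mitochondrial genes took 4.72 to 5.4% of counts at day 0, 2.95% at day 1 and 2.73 to 3.07% at day 5. Without day 0 repeat 1, 7 of the 13 were called. Of 40 nuclear genes of the chain 25 rose and 3 fell, or 62.5% and 7.5% beside 22.2% and 16.7% of all genes. Their median was 0.21. Without day 0 repeat 2 or 3 or day 5 repeat 2 or 3, 1 was called lower, and none was in the fit of 22 libraries. UQCRC2 and UQCRC1, core subunits of complex III, rose by 0.57 and 0.51.

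Glycolysis and hypoxia genes were split, with 8 higher and 9 lower of 30, or 26.7% and 30% beside 22.2% and 16.7% of all genes. VEGFA, an angiogenic factor, rose from 22.4–24.9 to 37.5–40.6 CPM and the glucose transporter SLC2A3 by 0.76, while the transporter SLC2A1 fell by 0.66 and NDRG1, a stress protein, from 6.22–7.06 to 0.492–0.808 CPM. LDHA and PGK1 were not called. Cytosolic ribosomal protein genes gave 8 higher and 4 lower of 78, or 10.3% and 5.13%. With scaling by library size alone they gave 4 higher and 17 lower. Their counts moved with single libraries, to 14 higher without day 0 repeat 3 and 11 lower without day 0 repeat 1. Ribosome biogenesis genes gave 3 higher and 11 lower of 28, or 10.7% and 39.3%. Targets of p53 gave 8 higher and 6 lower of 28, or 28.6% and 21.4% beside 22.2% and 16.7% of all genes, shares near those of all genes. Of the members, the death receptor FAS fell by 0.59, BTG2, an antiproliferative gene, rose from 111–116 to 266–268 CPM, and MDM2, which encodes the ligase that degrades p53, had a log2 fold change of 0.04 and was not called. Over the p53 list, log2 fold changes ran from -1.2, that of CDKN1A, to 1.23. Its median log2 difference from day 0 was -0.225, -0.36 and -0.231 at days 1, 2 and 3. The median was -0.0564 to -0.00657 at day 5 and 0.345 at day 10.

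Adhesion genes changed subunit by subunit. Of 16 integrins tested 5 rose and 5 fell, or 31.2% each beside 22.2% and 16.7% of all genes. ITGA6, a laminin receptor subunit, fell from 225, 237 and 234 CPM to 110.5, 108 and 111 CPM (log2 -1.06 ± 0.0373, adjusted p = 6.16e-19), ITGA3 fell by 0.70, and ITGB1, the common beta subunit, rose by 0.60. Of 17 matrix genes 10 rose and 3 fell, or 58.8% and 17.6%. MATN2, a matrilin, was up by 1.09 and TNC, tenascin C, was down from 308–312 to 203–218 CPM.

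The same interval was sampled with LLY-283, in libraries that share no sample with the vehicle comparison. Sample numbers 40 to 42 were day 0 and 4 to 6 were day 5, so day and number range cannot be told apart there either. There 7255 of 18369 genes were called (39.5%). Of the 6652 vehicle calls, 4292 were called in the same direction with LLY-283, which is 64.5% of the vehicle calls and 59.2% of the LLY-283 calls, and 169 were called in the opposite direction. The difference between the changes was tested as an interaction, which 2742 genes passed (14.9%), 1245 with a higher and 1497 with a lower change under LLY-283. That balance turned with scaling by library size alone, to 1493 higher and 1252 lower, and DESeq2 gave 866 higher and 1539 lower. Of the 2742 genes, 1623 were among the vehicle calls. With the spread estimated over all 22 libraries of days 0 to 7, 51 genes passed.

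The mitosis list had a median change of 0.53 with LLY-283 beside 0.778 with vehicle. Of its 32 members 25 passed the interaction test, beside 14.9% of all genes tested. For cholesterol synthesis the medians were 0.193 and 0.622, and 13 of 20 passed. MHC class I had medians of -0.618 and -0.792 and 4 of 15 passed, and oligodendrocyte precursor genes 0.579 and 0.457, with 8 of 15. List members were not counted among the 51 genes that passed in the fit of 22 libraries. Of single genes, KCNJ10 rose by 4.82 with LLY-283 and 3.92 with vehicle (interaction adjusted p = 0.00352). CHI3L1, a secreted glycoprotein of glia, fell with vehicle from 779.9–812 to 593–609 CPM and had a log2 change of 0.92 with LLY-283 (interaction adjusted p = 3.85e-17).

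**Figure D5:**
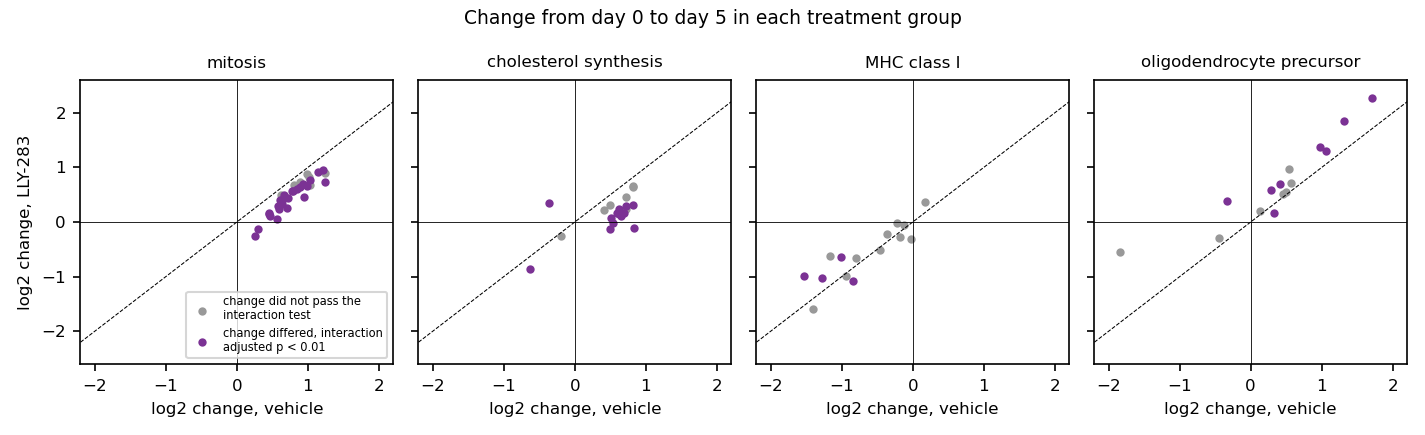
Log2 change from day 0 to day 5 with vehicle (horizontal axis) and with LLY-283 (vertical axis) for the members of 4 gene lists. Purple points passed the interaction test at an adjusted p under 0.01, grey points did not, and the dashed line marks equal change; all 32 mitosis genes lie below it, with medians of 0.778 and 0.53.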

How the data were processed

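RNA sequencing of 24 libraries was used, 6 of them in the main comparison. Per the labels and the study's methods, the authors made directional poly(A) libraries, pseudoaligned paired reads to the human transcriptome (hg38) with kallisto and deposited estimated counts per gene as whole numbers, not scaled to depth. The kallisto version and the annotation and strand setting of the counting are not given in the sources used here. A transcript-based count can be split among near-identical genes. Groups were taken from the labels. Genes low in counts were removed (filterByExpr) and edgeR 4.0.16 in R 4.3.3 tested the rest by its quasi-likelihood test with TMM scaling and Benjamini-Hochberg adjustment over all genes tested. A gene was called at an adjusted p under 0.01, and it fell or rose only if called. The interaction of treatment with day used the 12 libraries of days 0 and 5. Fold changes are log2 with standard errors, and CPM (counts scaled to the library total) use TMM-scaled library sizes.

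The members and gene lists were chosen with earlier results of these data known, so lists were described by counts and medians, without a test. Genes were named as the 12 largest increases and decreases among called protein-coding genes of at least 5 CPM with libraries of the days not overlapping, the 4 of smallest p in each list, other list members by their values, and the 5 of smallest interaction p in each direction. Gene places, types and overlaps came from GENCODE 44, and gene names from a reference list of symbols. Promoters came from RefSeq (GRCh38.p14). The tests were also run on simulated counts with few changed genes, balanced in direction, and the same spread setting for every gene. These data differ in each respect, so that run does not check the scaling or the error rate here. Alternatives were DESeq2 1.42.0, other scalings and filters, thinned counts, a block for repeat number, a fit of 22 libraries, other thresholds and leaving out each library. A few genes that the rule names are not reported here.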

Additional observations from a re-analysis of the deposited data

Results flagged for a closer look

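The change from day 0 to day 5 differed between LLY-283 and vehicle for 2742 genes by the interaction test of edgeR at an adjusted p under 0.01, and for 51 in the fit of 22 libraries. Among genes of the 5 smallest p in each direction, the difference (LLY-283 change less vehicle change, log2) was 1.31 for CHI3L1, 1.07 for SCN3A, a sodium channel, 1.57 for MATN2, 0.736 for the protease inhibitor SERPINE2 and 0.68 for TNC. It was -0.781 for RRM2, a subunit of ribonucleotide reductase, -0.783 for OXCT1, an enzyme of ketone use, -0.642 for TRIM58, -0.675 for the pseudouridine synthase PUS7 and -0.95 for NGFR, a neurotrophin receptor. RRM2 and OXCT1 had log2 changes of -0.08 and -0.04 with vehicle and were not called there. In the fit of 22 libraries the vehicle changes of CHI3L1, SCN3A, MATN2 and NGFR were not called.

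FN1 was also high in libraries that entered neither comparison. It was at 25.6 CPM in the LLY-283 library of day 2 and at 30.4 CPM in vehicle day 7 repeat 1, above the highest vehicle day 0 library at 8.26 CPM. COL1A1 was at 31.0 and 31.6 CPM in the same libraries.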

How the results depend on the processing

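The main count of 6652 genes ranged from 5095 to 6777 across the other tools, scalings, filters and fits at the same threshold, from 5624 to 6114 when single libraries were left out, and was 8609 at an adjusted p under 0.05. With an absolute log2 fold change above 1 as well it was 767. The interaction count of 2742 ranged from 2126 to 3000 when single libraries were left out and was 4452 at an adjusted p under 0.05 and 51 in the fit of 22 libraries, which takes in the day 7 libraries. When single libraries were left out, the list median was -0.0649 to 0.0131 for glycolysis and hypoxia (highest without vehicle day 5 repeat 1), -0.144 to 0.393 for fibroblast genes (lowest without repeat 3) and -0.119 to 0.0379 for NRF2 targets (highest without repeat 2). Of 2308 values of named genes under the alternatives, 2273 stayed called or not called as before, 32 lost the call and 3 gained it. Direction was compared only where a gene was called in either fit, and none reversed there. In the fit of 22 libraries genes including CHI3L1, MATN2, SCN3A, NGFR, ABCG1, LSS and MCM4 were not called. Of 924 counts of list members 74 moved by over 1.5 times. Of 462 list medians 61 moved beyond the spread, 21 of them with scaling by library size alone. A further 3 turned in sign from a main median beyond that spread, those of glycolysis and hypoxia, fibroblast genes and NRF2 targets above. The causes were not tested.

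With repeat number as a block, 6490 genes were called for vehicle and 2435 for the interaction. Deviations of same-numbered libraries correlated at -0.108, -0.0318 and 0.0876 across 11512 genes. Those of differently numbered libraries correlated at -0.147 to 0.167, and whether same-numbered repeats shared handling was not tested. CSPG4 lost its call with the block.

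Depth was lower at day 5, which limits calls among rare transcripts. With counts thinned to the smallest total, 6243 genes were called, of which 6061 were shared with the main result.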

Other observations

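Immediate early genes, which respond to signals without new protein synthesis, moved in both directions, with 13 higher and 9 lower of 25 tested. The shares were 52% and 36%, beside 22.2% and 16.7% of all genes. EGR1, a transcription factor, was at 59.1, 66.2 and 68.2 CPM at day 0 and at 124, 113 and 114 CPM at day 5. KLF2, a transcription factor of another family, was at 35.4, 45.2 and 42.8 CPM and then 15, 13.2 and 13.3 CPM (log2 -1.56 ± 0.0892, adjusted p = 1.22e-10). FOS and JUN, subunits of AP-1, rose by 0.50 and 0.27, while FOSB fell by 1.36.

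Targets of NRF2, the regulator of the oxidative stress response, gave 6 higher and 7 lower of 17 tested. The shares were 35.3% and 41.2%, beside 22.2% and 16.7% of all genes. The lower count was 2 to 3 without day 0 repeat 2 or 3 or day 5 repeat 1 or 2. With all 6 libraries DESeq2 gave 2 lower, as did the fit of 22 libraries. NQO1, a quinone reductase, rose by 0.51 and the pentose phosphate enzymes TKT, TALDO1 and PGD rose by 0.47, 0.44 and 0.38, while OSGIN1 and HMOX1 (heme oxygenase) fell by 0.76 and 0.63. Lysosome genes gave 8 higher and 9 lower of 32 tested, or 25% and 28.1% beside 22.2% and 16.7% of all genes. TFE3, a transcription factor of the lysosome, was up by 0.42 and the tetraspanin CD63 and the activator PSAP were down by 0.46 and 0.37. Of 42 replication-dependent histone genes 15 passed the filter on low counts, 5 rose and 1, the linker histone H1-2, fell from 27.5–29.8 to 16.6–18.1 CPM at day 5. The 5 and the 1 were 33.3% and 6.67% of those tested, beside 22.2% and 16.7% of all genes. The count of higher histone genes was 3 without day 0 repeat 1 or 2 or day 5 repeat 3. It was also 3 with DESeq2, and 1 in the fit of 22 libraries. The libraries were made from poly(A) RNA, and how fully they sample histone transcripts was not tested. Both tested endothelial markers, ESAM and PECAM1, fell, by 0.61 and 0.51, though ESAM was not called without day 0 repeat 1 or day 5 repeat 1 or 3, nor PECAM1 without day 0 repeat 1 or 2 or day 5 repeat 1.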
